A study of Mus musculus with 10 samples.

Results

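The guanylate-binding protein genes examined here are Gbp2, Gbp3, Gbp4, Gbp6, Gbp7, Gbp8 and Gbp9. They are the 7 rows of the deposited mouse gene count table whose Ensembl identifiers carry these symbols in build GRCm38, out of 55573 rows, and all 7 passed the filter on low counts. The family was picked with its difference between the sorted groups already known, so levels and differences of the 7 genes are given as a description, with no test. The table covers 10 libraries of bone marrow B-cells from mice of the genotype PAX5-ELN H2B-GFP, all labelled with the treatment Doxycycline and the time 35 days. PAX5-ELN joins PAX5, a transcription factor of B-cell identity, to elastin and is known from human B-cell acute lymphoblastic leukemia. H2B-GFP is a fluorescent histone that is diluted as cells divide. The 5 GFP high libraries are labelled quiescent and the 5 GFP low libraries proliferating, and no library without the fusion or without doxycycline was among them. The promoters that drive the transgenes, what the 35 days are counted from, and the animals behind each library are not given in the sources used here. P-values therefore measure only the spread between these samples.

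Guanylate-binding proteins are large GTPases of the dynamin superfamily that interferons induce strongly, above all interferon gamma. They assemble on the vacuoles of intracellular microbes and on free bacteria, break or mark these membranes, and help to start inflammasome signalling and cell-autonomous defence. Interferon gamma acts through the kinases JAK1 and JAK2 on gamma-activated sites and through IRF1 on interferon-stimulated response elements. Type I interferons act through TYK2, STAT2 and IRF9 on the latter elements.

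In mice the family lies in 2 clusters. Gbp7 (ENSMUSG00000040253, chr3:142530342-142550149), Gbp3 (ENSMUSG00000028268, chr3:142560026-142573209) and Gbp2 (ENSMUSG00000028270, chr3:142620602-142638008) lie on the plus strand of chromosome 3, with Gbp5 and Gbp2b beside them. Gbp8 (ENSMUSG00000034438, chr5:105014150-105139540), Gbp9 (ENSMUSG00000029298, chr5:105077630-105139539), Gbp4 (ENSMUSG00000079363, chr5:105115767-105139586) and Gbp6 (ENSMUSG00000104713, chr5:105270702-105293698) lie on the minus strand of chromosome 5, with Gbp10 and Gbp11. The gene models of Gbp8, Gbp9 and Gbp4 overlap one another in this annotation (GENCODE M21, build GRCm38).

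RefSeq promoter windows, from 250 bases before to 50 bases after a start site in build GRCm38.p6, were found for 3 of the 7 genes, Gbp7, Gbp2 and Gbp3. Entries for Gbp4, Gbp6, Gbp8 and Gbp9 were not found. The letters GAAA, 2 bases of any kind and again GAAA, the core of an interferon-stimulated response element, were searched on both strands and occurred in 3 of these 3 genes, against 3.99% of the 27025 genes with a window and 3.44% of all 32851 windows of that length. Gbp3 has a second window, at a start site farther downstream, which held no match. These stretches are shown because all 3 genes carry the letters within 60 bases of the start site, on the strand opposite to the search word. Gbp5 and Gbp2b of the same cluster carry them farther upstream and are shown for comparison. Capitals mark the matching letters, and every line reads 5′ to 3′ on the plus strand.
Gbp7, chr3:142530258-142530317: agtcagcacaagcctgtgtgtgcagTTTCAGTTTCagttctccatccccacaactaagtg
Gbp3, chr3:142559974-142560025: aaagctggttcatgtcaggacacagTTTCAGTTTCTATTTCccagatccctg
Gbp2, chr3:142620594-142620623: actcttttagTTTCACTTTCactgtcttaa
Gbp5, chr3:142496744-142496803: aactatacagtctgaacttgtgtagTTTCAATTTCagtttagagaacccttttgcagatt
Gbp2b, chr3:142594685-142594744: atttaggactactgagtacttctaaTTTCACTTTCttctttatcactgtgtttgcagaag
The match lay 53 to 44 bases before the start site in Gbp7 and 59 to 50 bases before it in Gbp2. In Gbp3 it was a pair of overlapping matches from 45 to 30 bases before the start site. It lay from 165 bases before the start site in Gbp5 and from 137 bases before it in Gbp2b. The Gbp2 stretch falls partly inside the first exon of the GENCODE model. The letters TTCNNNGAA, the core of a gamma-activated site, occurred in 1 of the 3 genes, Gbp7, whose window held 2 matches, against 9.55% of genes with a window. These matches did not overlap the longer one, and a match is a description of letters, not of binding.

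Levels are in CPM, counts normalised to the scaled size of each library, and are listed in the order of replicates 1 to 5. The libraries held 10640894 to 14858520 counts each. Replicates 1 to 3 stood apart from replicates 4 and 5 in both sorted groups. They separated on the second principal component, which held 22.0% of the variance over the 12772 tested genes, while the sorted groups separated on the first, with 36.6%. The labels do not say what set the replicate sets apart, so values of the members are given for each set where they differ. B-cell identity was checked with 10 B-lineage markers, which were all detected and which summed to 14871 to 17052 CPM in the GFP high libraries. In the GFP low libraries they summed to 12453 to 13644 CPM.

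Gbp7, which has been tied to assembly of the phagocyte oxidase and to autophagy, was the most abundant member and was 2.01-fold higher in GFP high. Its level was 438, 471, 497, 654 and 651 CPM in the GFP high libraries. It was 238, 181, 224, 347 and 359 CPM in the GFP low libraries. Every GFP high library lay above every GFP low library, and Gbp7 was the only one of the 7 genes of which this held. Over all tested genes, 7.92% were separated in this direction and 20.5% in either direction. The GFP high mean was 542 ± 103 CPM and the GFP low mean 269.7 ± 78.9 CPM (SD over 5 libraries, as below). The log2 fold change was 1.01 ± 0.19 (SE). The 5 same-numbered pairs differed by 0.88, 1.37, 1.15, 0.91 and 0.86 in log2(CPM + 0.5), and replicates 4 and 5 were above replicates 1 to 3 within each group.

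Gbp2, which coats vacuoles of Toxoplasma gondii and takes part in activation of the AIM2 inflammasome, was 1.77-fold higher in GFP high. It measured 85.4, 111, 97.6, 160.0 and 161 CPM in GFP high. In GFP low it measured 57.3, 56.4, 53.6, 91.4 and 89.6 CPM. The groups overlapped only because GFP low replicates 4 and 5 lay above GFP high replicate 1. Within replicates 1 to 3, and within replicates 4 and 5, every GFP high library was above every GFP low library. The same held for Gbp3, Gbp4 and Gbp7, and the share of all tested genes with this pattern was not computed. The means were 123 ± 35.4 and 69.6 ± 19.1 CPM, and the log2 fold change was 0.82 ± 0.21.

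Gbp3, another member recruited to Toxoplasma vacuoles, was 1.59-fold higher in GFP high. Its GFP high libraries held 102, 82.3, 103, 157 and 172 CPM. Its GFP low libraries held 64.3, 64.0, 65.7, 97.2 and 95.5 CPM. The only overlap was GFP high replicate 2, which lay below GFP low replicates 4 and 5. The means were 123 ± 38.7 and 77.3 ± 17.4 CPM, and the log2 fold change was 0.67 ± 0.21. The pair differences ran from 0.36 in pair 2 to 0.84 in pair 5.

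The 3 members on chromosome 3 summed to 788 ± 174 CPM in the GFP high libraries, against 417 ± 114 CPM in GFP low. The 4 members on chromosome 5 summed to 149 ± 28.3 and 107 ± 16.4 CPM. The chromosome 5 members differed more among themselves, from a gene with the same mean in both groups to a scarce gene with the widest difference.

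Gbp4, which in mouse restrains IRF7-driven interferon production, was 1.80-fold higher in GFP high. The GFP high libraries held 90.7, 79.4, 108, 65.2 and 48.1 CPM. The GFP low libraries held 58.2, 35.4, 43.2, 42.5 and 38.0 CPM. The overlap came from GFP high replicate 5, which lay below GFP low replicate 1. Unlike the chromosome 3 members, Gbp4 in GFP high was lower in both of replicates 4 and 5 than in any of replicates 1 to 3. The means were 78.4 ± 23.1 and 43.5 ± 8.83 CPM, and the log2 fold change was 0.85 ± 0.20.

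Gbp6, which is also recruited to Toxoplasma vacuoles, was 1.92-fold higher in GFP high at a low level. It measured 12.0, 8.89, 15.2, 13.2 and 7.71 CPM in GFP high. It measured 3.87, 4.81, 5.13, 8.73 and 7.11 CPM in GFP low. GFP high replicate 5 lay below GFP low replicate 4, and the pair differences fell to 0.57 and 0.11 in pairs 4 and 5 from 1.51 in pair 1. The log2 fold change was 0.94 ± 0.26. Reads of Gbp6 can be confused with those of other genes, since 70.7% of the 50-base words in its exons also occur in another gene, and 65.0% of its words occur in Gm43302, an overlapping gene model listed at 0 in all 10 libraries. For the other members this share ran from 2.03% in Gbp2 to 18.1% in Gbp8.

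Gbp8 was the scarcest member, with 8 to 63 counts per GFP high library and 2 to 24 counts per GFP low library. It measured 2.48, 0.697, 4.42, 2.34 and 1.21 CPM in GFP high. It measured 0.287, 0.141, 0.484, 1.89 and 0.880 CPM in GFP low. Every pair was higher in GFP high, by 0.25 to 2.32, but the groups overlapped, with GFP high replicate 2 below GFP low replicates 4 and 5 and GFP high replicate 5 below GFP low replicate 4. The log2 fold change of 1.60 ± 0.65 was the largest and the least precise of the 7. In GFP low, both of replicates 4 and 5 were above all of replicates 1 to 3.

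Gbp9, which joins the others on Toxoplasma vacuoles, had the same mean level in both groups. It measured 53.0, 57.6, 61.4, 59.1 and 54.5 CPM in GFP high. It measured 60.1, 45.0, 47.0, 69.3 and 61.5 CPM in GFP low. All GFP high libraries lay inside the GFP low range. The means were 57.1 ± 3.41 and 56.6 ± 10.3 CPM, with a log2 fold change of 0.01 ± 0.12. GFP high was above GFP low in pairs 2 and 3 alone, by 0.35 and 0.38, and below it in pairs 1, 4 and 5, by -0.18, -0.23 and -0.17.

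**Figure D1:**
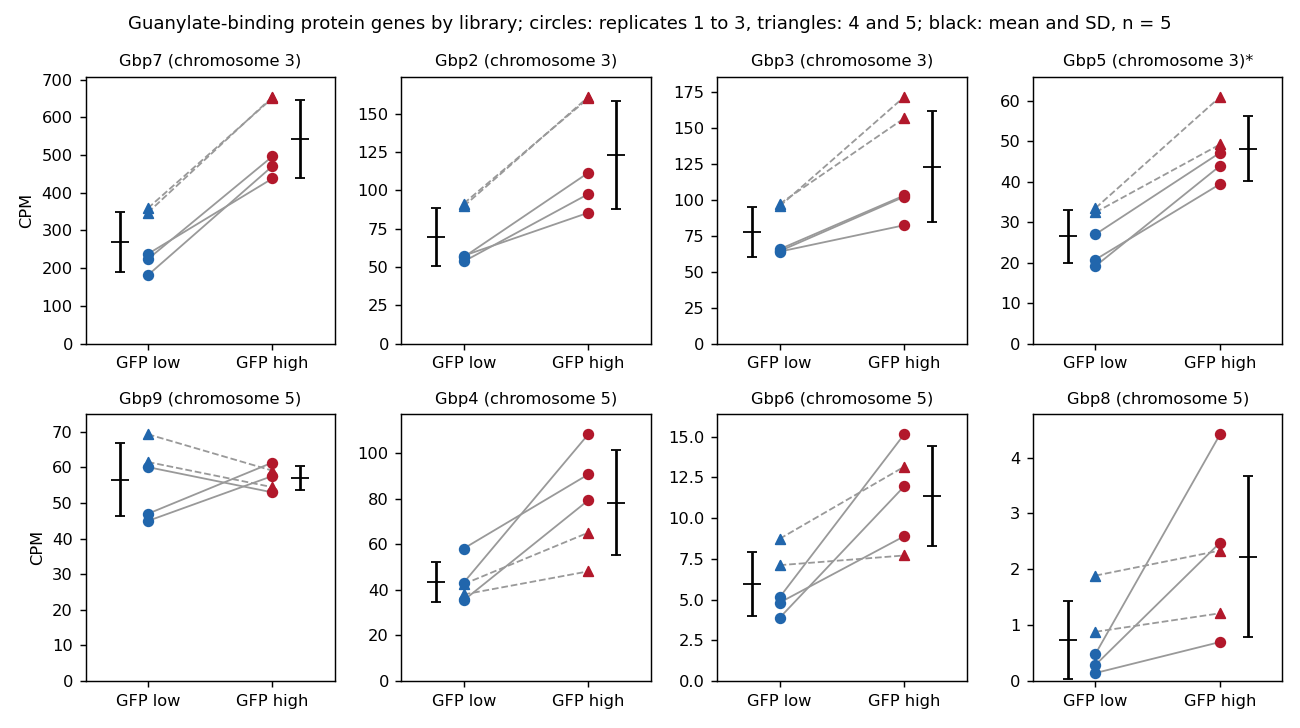
CPM (y axis, linear from 0) of the 7 members and of Gbp5 (marked by an asterisk, a family gene outside the 7) in GFP low and GFP high libraries. Lines join libraries of the same replicate number, circles are replicates 1 to 3, triangles are replicates 4 and 5, and black bars are the mean and SD of 5 libraries. Gbp7 and Gbp5 are the panels in which the groups do not overlap, and the lines of Gbp9 cross.

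In the fit over all 12772 tested genes, 5 of the 7 members were higher in GFP high at an adjusted p under 0.05 (Gbp2, Gbp3, Gbp4, Gbp6 and Gbp7), beside 12.0% of all tested genes called higher, 15.4% called lower and 27.5% called in either direction. With the replicate number as a block, 6 of the 7 were called, Gbp8 being added, beside 20.7% of all tested genes called higher and 41.8% called in either direction. Nothing is read from these counts, because the family was chosen on this contrast. The median log2 fold change of the 7 was 0.85, beside 0.03 for all tested genes. In 6 of the 7 genes GFP high was higher in 5 of 5 same-numbered pairs, a pattern found in 22.9% of all tested genes.

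The difference was also estimated within each replicate set. On chromosome 3 the log2 fold changes in replicates 1 to 3 and in replicates 4 and 5 were 1.15 and 0.87 for Gbp7, 0.84 and 0.81 for Gbp2, and 0.59 and 0.75 for Gbp3. On chromosome 5 they were 1.05 and 0.48 for Gbp4, 1.41 and 0.39 for Gbp6, and 0.20 and -0.22 for Gbp9. Whether the sets differ was not tested. Gbp8 was 0.35 in replicates 4 and 5 and was too scarce to enter the fit of replicates 1 to 3. In replicates 4 and 5 alone 3 members were called (Gbp2, Gbp3 and Gbp7), beside 10.3% of all tested genes called higher in that fit.

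As a description of what single libraries contribute, the call of Gbp3 was lost without GFP high replicate 4 (0.58) or 5 (0.53) or without GFP low replicate 1 (0.60), 2 (0.61) or 3 (0.61), the values being the log2 fold changes left. That of Gbp6 was lost without GFP high replicate 3 (0.81) or GFP low replicate 3 (0.89). Gbp8 was called without GFP low replicate 4 (2.31).

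**Figure D2:**
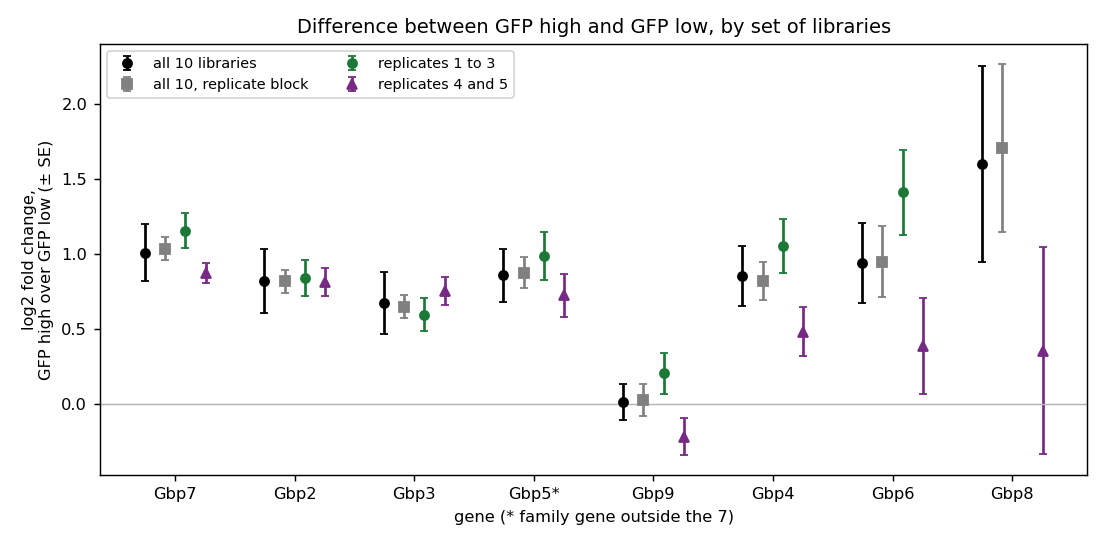
Log2 fold change of GFP high over GFP low (y axis, ± SE) for each tested family gene, from all 10 libraries without and with the replicate block and from each replicate set. The chromosome 3 genes keep values from 0.59 to 1.15 in all 4 fits. Among genes with a value in both replicate sets, only Gbp3 is higher in replicates 4 and 5 than in replicates 1 to 3. Gbp8 has no value for replicates 1 to 3.

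Levels between genes were compared as CPM per kb of annotated exon. Over the 10 libraries the order was Gbp7 at a mean of 72.3, Gbp2 at 38.3, Gbp3 at 30.7, Gbp9 at 11.0, Gbp4 at 8.13, Gbp6 at 1.45 and Gbp8 at 0.430 CPM per kb. Gbp7 supplied 42.9% of the summed mean level of the 7 genes and the 4 other family genes together, Gbp2 22.7% and Gbp3 18.2%. Each gene stood above the next one in all 10 libraries, except that Gbp9 stood above Gbp4 in 8 of 10. The ranges over libraries were apart only between Gbp3 and Gbp9 and between Gbp4 and Gbp6. The other neighbours, among them Gbp2 and Gbp3, had overlapping ranges.

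**Figure D3:**
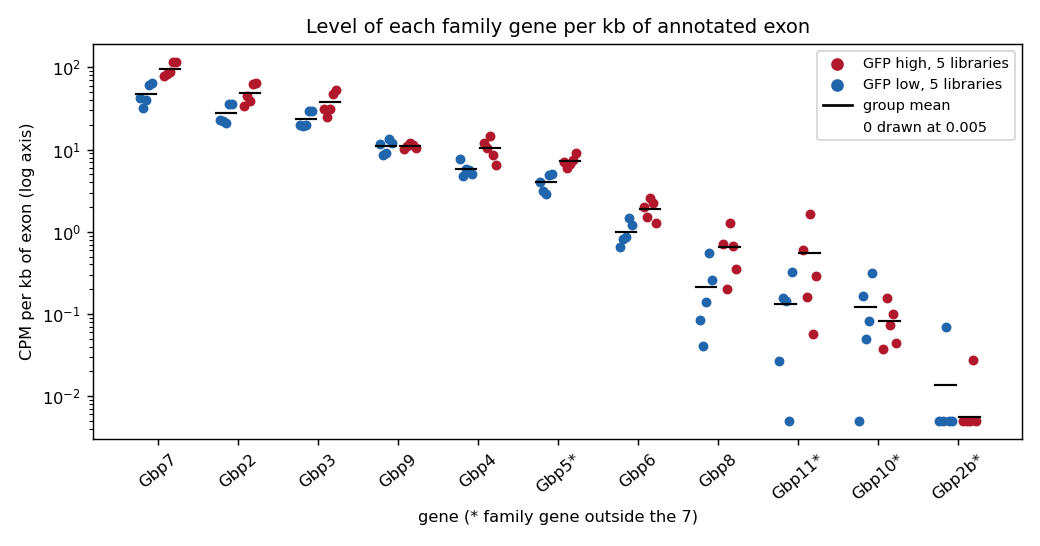
CPM per kb of annotated exon (y axis, log scale) of all 11 family genes in the 5 GFP low and 5 GFP high libraries, with the group means as lines and values of 0 drawn at 0.005. The level runs from 72.3 for Gbp7 to 0.430 for Gbp8 among the 7 members. Asterisks mark family genes outside the 7.

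The family has 4 further genes in the table, of which 1 was abundant enough to test. Gbp5 (ENSMUSG00000105504, chr3:142493978-142522344), a prenylated member linked to inflammasome activation, rose in GFP high. It measured 47.2, 39.5, 44.0, 49.3 and 61.0 CPM in GFP high. It measured 27.0, 20.8, 19.2, 32.5 and 33.5 CPM in GFP low. The groups did not overlap, beside 7.92% of all tested genes separated in this direction. All 5 pairs were higher in GFP high, beside 22.9% of all tested genes. The log2 fold change was 0.86 ± 0.17, with an adjusted p of 0.00314 in edgeR's quasi-likelihood test, and the adjusted p ran from 0.00247 to 0.00855 as each library was left out. Gbp5 belongs to a family picked on this contrast, so these values are a description and no separate support.

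Gbp2b, Gbp10 and Gbp11 did not pass the filter. Gbp2b, the mouse gene once called Gbp1, had 1 count in GFP high replicate 4, 2 counts in GFP low replicate 3 and 0 in the other 8 libraries, where a count of 0 allows up to 3 counts, or 0.202 to 0.264 CPM by the unscaled library totals. Gbp10 had 2 to 7 counts per GFP high library and 0 to 18 per GFP low library, and 84.1% of its 50-base words occur in other genes, with 73.3% of its words occurring in Gbp6. Gbp11, annotated as a polymorphic pseudogene, had 22, 5, 63, 2 and 9 counts in the GFP high libraries. Its GFP low libraries had 1, 6, 4, 0 and 13. The same library, GFP high replicate 3, held the most counts of both Gbp11 and Gbp8, at 63 each, and 7.37% of the Gbp8 words occur in Gbp11. Gbp2b was at or near 0 in libraries in which its neighbours Gbp3 and Gbp2 measured 53.6 CPM or more.

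The levels of the family were set side by side with those of other genes over libraries. Replicates 4 and 5 were above replicates 1 to 3 in both groups, without overlap, for Gbp2 (1.64-fold in GFP high and 1.62-fold in GFP low), Gbp3 (1.71 and 1.49), Gbp7 (1.39 and 1.65) and Gbp5 (1.27 and 1.48). Of all tested genes, 23.9% were separated this way in GFP high and 20.7% in GFP low, each group taken alone. The share separated in both groups at once was not computed. For Gbp4 the replicates 4 and 5 of GFP high were lower, at 0.610 times the mean of replicates 1 to 3, and in GFP low the sets overlapped. Gbp6, Gbp8 and Gbp9 were higher in replicates 4 and 5 of GFP low and overlapped in GFP high. Within a sorted group, the members thus did not all differ between replicate sets in the same direction.

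The interferon gamma target and regulator Irf1, named here after its values were seen, moved across the replicate sets opposite to the chromosome 3 members. It measured 440.0 to 453 CPM in GFP high replicates 1 to 3 and 150 to 169 CPM in replicates 4 and 5. In GFP low it measured 382 to 434 and 98.6 to 99.3 CPM. Socs3, a feedback inhibitor of cytokine signalling also named after its values were seen, was likewise lower in replicates 4 and 5, at 0.208 times replicates 1 to 3 in GFP high and 0.171 times in GFP low. With each sorted group taken alone, 19.8% of all tested genes in GFP high and 21.3% in GFP low were lower in replicates 4 and 5 without overlap. The share lower in both groups at once was not computed. Iigp1, an interferon-inducible immunity-related GTPase named after its values were seen, was higher there, by 3.45-fold and 4.65-fold. Tgtp1 of the same GTPase list was lower there in GFP low, at 0.765 times, and the sets overlapped in GFP high.

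The genes with the most similar library pattern to Gbp7 were chosen by Pearson's r of log2(CPM + 0.5) after the mean of each sorted group was removed. They were Ccnd2 (cyclin D2) at 0.995, 5031439G07Rik at 0.992, Muc13 (a transmembrane mucin) at 0.989, Gm45745 at 0.978 and Il10ra (the ligand-binding chain of the interleukin 10 receptor) at 0.977 over 10 libraries. All 10 points share the split between the replicate sets. Within the 6 libraries of replicates 1 to 3 the values were 0.984, 0.916, 0.954, 0.868 and 0.963. The genes were picked over all 10 libraries, which include these 6, so the 6 are no separate check of the likeness. The likeness leaves out the difference between GFP high and GFP low. Muc13, Gm45745 and Il10ra were higher in GFP high, with log2 fold changes of 2.75, 1.11 and 1.65. Ccnd2 was also higher there, at 629 ± 226 against 163 ± 91.2 CPM. Only 5031439G07Rik was lower, at 119 ± 11.9 against 153 ± 23.5 CPM.

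**Figure D4:**
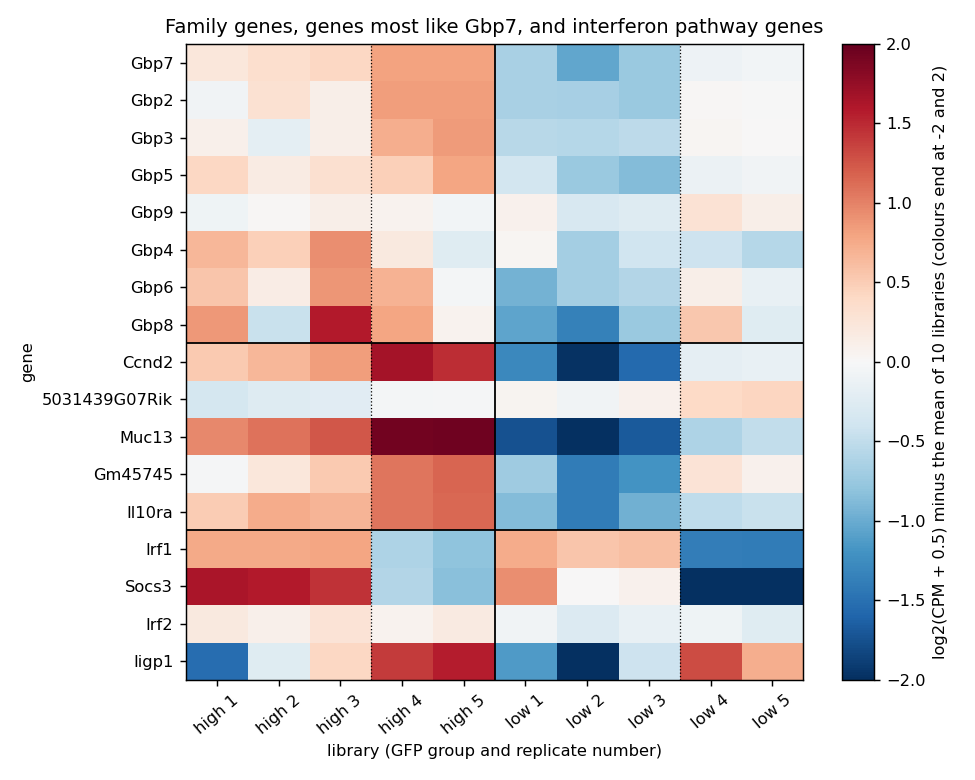
Difference of log2(CPM + 0.5) from the mean of 10 libraries (colour, ending at 2 in either direction) for family genes, the 5 genes most like Gbp7 and 4 interferon pathway genes in each library (columns), with dotted lines between replicates 1 to 3 and 4 and 5. Gbp7, Gbp2, Gbp3 and Gbp5 are highest in GFP high replicates 4 and 5, whereas Irf1 and Socs3 are lower there than in replicates 1 to 3.

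Other interferon-inducible GTPases were examined as the nearest relatives of the family in function. Of 15 immunity-related and very large inducible GTPase genes, 13 were tested, 7 rose in GFP high, 0 fell and 6 did not pass, beside 12.0% of all tested genes called higher and 15.4% called lower. The median log2 fold change was 0.56, beside 0.03 for all tested genes. Tgtp1 rose from 5.17 ± 1.02 to 12.7 ± 3.59 CPM (log2 fold change 1.30 ± 0.23, adjusted p = 0.0013, edgeR). Gm5431 rose from 1.78 ± 0.652 to 5.46 ± 1.21 CPM (log2 fold change 1.61 ± 0.32, adjusted p = 0.00268, edgeR), and 9930111J21Rik2 from 22.6 ± 2.80 to 35.4 ± 5.50 CPM (log2 fold change 0.65 ± 0.13, adjusted p = 0.00324, edgeR). In all 3 the groups did not overlap, beside 7.92% of all tested genes separated in this direction. These 3 were named for the lowest p of their list, so nothing is read from that. The other 4 that rose were Tgtp2, 9930111J21Rik1, Gvin1 and Gm4070. All 7 share 50-base words with other genes, from 37.3% of words in Gm5431 to 99.2% in Gvin1, so which copy rose is uncertain. Much of the sharing is among the 7, so they cannot be counted as 7 separate genes. Gvin1 shares 98.3% of its words with Gm4070, Tgtp2 85.8% with Tgtp1, and 9930111J21Rik1 80.4% with 9930111J21Rik2. The 6 genes that did not pass share at most 11.8% of their words, in Igtp. With the replicate block 10 of 13 rose, Irgm1, Irgm2 and Igtp being added, beside 20.7% of all tested genes called higher with the block.

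Many genes of the interferon gamma signalling list carry the signal from the receptor to the family's promoters or damp it. The list also holds genes outside that path, such as Nlrc5, so its counts are not counts of that path alone. Of 16 listed genes 15 were tested, 6 rose in GFP high, 0 fell and 9 did not pass, with a median of 0.24, beside 12.0% of all tested genes called higher and 27.5% in either direction. The receptor chains Ifngr1 and Ifngr2 and the kinase Jak1 were among the 6. Jak1 rose from 568 ± 48.8 to 745 ± 42.4 CPM (log2 fold change 0.39 ± 0.07, adjusted p = 0.00215, edgeR). Irf2, a repressor or activator at the same elements as IRF1, rose by 0.33 ± 0.08 on the log2 scale (adjusted p = 0.0064, edgeR), and Nlrc5, the activator of MHC class I genes, by 0.54 ± 0.14 (adjusted p = 0.0109, edgeR). The last of the 6 was Usp18. Nlrc5 differed by 0.78 in replicates 1 to 3 and by 0.26 in replicates 4 and 5, and Jak1 by 0.52 and 0.23, and whether the sets differ was not tested.

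With the replicate block 11 of the 15 rose, Jak2, Irf1, Ptpn6, Socs1 and Socs3 being added, beside 20.7% of all tested genes. Without both libraries numbered 3 the count was 3, beside 926 of 12816 tested genes called higher in that fit. Over all 10 libraries Irf1 had an adjusted p of 0.753 without the block and 0.01 with it in edgeR, and it was also called in replicates 4 and 5 alone. Its log2 fold change without the block was 0.23 ± 0.46.

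Of 29 type I interferon response genes 28 were tested, 8 rose, 0 fell and 20 did not pass, with a median of 0.28, beside 12.0% of all tested genes called higher and 27.5% in either direction. Ifit3, an antiviral RNA-response gene, rose from 4.40 ± 1.35 to 10.5 ± 2.20 CPM (log2 fold change 1.25 ± 0.26, adjusted p = 0.00325, edgeR). Replicates 1 to 3 gave a log2 fold change of 1.54, and replicates 4 and 5, where Ifit3 was not called, gave 0.90. The signal transducer Stat2 rose by 0.62 ± 0.14 on the log2 scale (adjusted p = 0.00472, edgeR) and the receptor kinase Tyk2 by 0.71 ± 0.15 (adjusted p = 0.00476, edgeR). The count was 5 without GFP high replicate 2 or 3 or without GFP low replicate 2. Those fits called 1358 of 13046, 1275 of 12921 and 1189 of 12988 tested genes higher, in that order. With the replicate block 13 rose, beside 20.7% of all tested genes, and 1 fell, Oas1a, which makes the activator of RNase L.

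Of the 20 genes that prenylate, place or act with guanylate-binding proteins, all tested, 2 rose, 1 fell and 17 did not pass, with a median of 0.09, beside 12.0% of all tested genes called higher and 27.5% in either direction. Fntb, the beta chain of the farnesyltransferase, fell from 14.0 ± 1.78 to 8.58 ± 1.25 CPM (log2 fold change -0.71 ± 0.16, adjusted p = 0.0066, edgeR). Its groups did not overlap, beside 20.5% of all tested genes separated in either direction. Fntb was named for the lowest p of its list, so nothing is read from that. The DNA sensor Aim2 rose by 0.74 ± 0.24 on the log2 scale (adjusted p = 0.0366, edgeR) and the inflammasome sensor Nlrp3 by 1.55 ± 0.53 (adjusted p = 0.0461, edgeR). Nlrp3 was not called without any 1 of GFP high replicates 2 (log2 fold change 1.60) and 3 (0.73) or GFP low replicates 1 (1.46), 2 (1.56), 4 (1.49) and 5 (1.49). Nlrp3 differed by 1.85 in replicates 1 to 3 and by 0.65 in replicates 4 and 5, where it was not called. Aim2 was not called without any 1 of GFP high replicates 4 (0.67) and 5 (0.57) or GFP low replicates 1 (0.61), 2 (0.66) and 3 (0.70). With the replicate block 5 rose (Atg12, Atg16l1, Aim2, Casp1 and Nlrp3) and 2 fell (Fnta and Fntb), beside 41.8% of all tested genes called in either direction. Without GFP low replicate 1 or 2 the list had 1 call. Those fits called 3419 of 12932 and 2853 of 12988 tested genes in either direction.

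**Figure D5:**
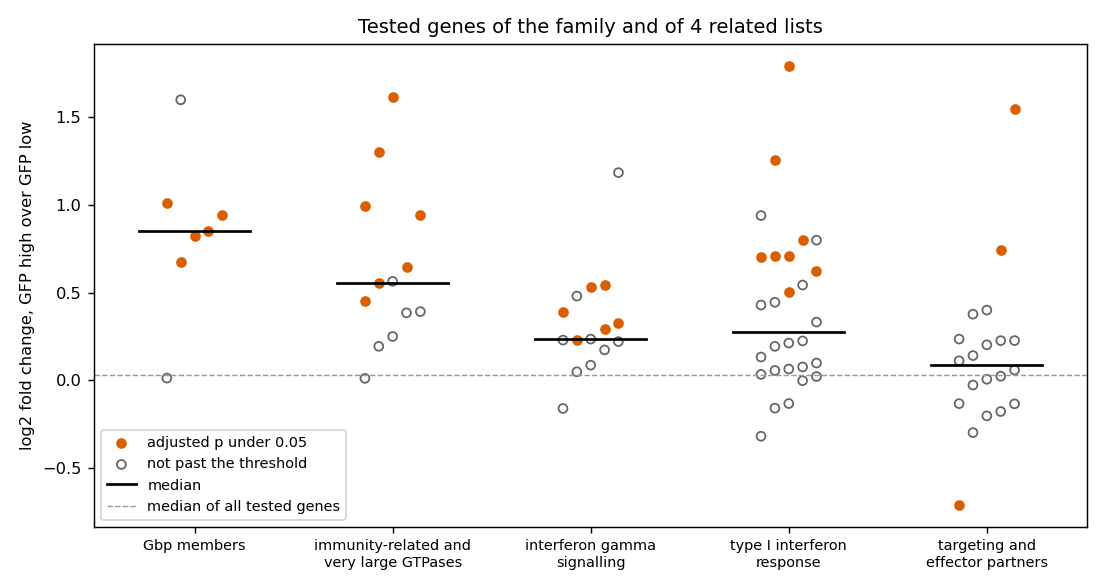
Log2 fold change of GFP high over GFP low (y axis) for each tested gene (points) of the 7 members and of 4 related lists (columns), with filled points past an adjusted p of 0.05, black lines for the median and a dashed line for the median of all tested genes, 0.03. The medians are 0.85, 0.56, 0.24, 0.28 and 0.09 from left to right.

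The core letters of the response element, printed above for the family, occurred in the windows of 7 of 10 GTPase genes with an entry, 12 of 23 type I response genes, 2 of 11 interferon gamma signalling genes and 0 of 15 partner genes.

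Guanylate-binding proteins are made by many cell types, and in these bulk libraries more RNA of a gene per cell cannot be told apart from more cells that make it. Markers of other cell types were therefore summed. Monocyte and macrophage markers, 9 of 9 detected, summed to 109 to 153 CPM in the GFP high libraries, against 75.5 to 110 CPM in GFP low. The 7 T-cell markers, with Cd8a at 0, summed to 3.19 to 7.93 and 1.49 to 4.65 CPM. The 6 NK-cell markers, with Gzma at 0, summed to 186 to 326 and 63.0 to 165 CPM, almost all of it Klrb1c, without which the sums were 0.156 to 2.08 and 0 to 0.812 CPM. Plasmacytoid dendritic cell markers, with Klk1 at 0, summed to 4.37 to 10.7 and 2.71 to 6.05 CPM. The 8 mature B-cell markers summed to 273 to 336 and 229 to 294 CPM, and stromal and endothelial markers to at most 41.8 and 27.0 CPM. Neutrophil markers summed to at most 10.7 CPM, erythroid markers to at most 35.4 CPM and megakaryocyte markers to at most 9.55 CPM in any library. The part of these cells in the levels of the family was not tested.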

How the data were processed

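The authors deposited 1 table of whole-number read counts per Ensembl gene for the 10 libraries, not normalized. Per the labels, polyadenylated RNA was amplified with SMART-Seq v4. Per the submitters' processing notes, STAR, featureCounts, DESeq2 and mm10 were used, and versions, strand and treatment of reads with several matches are not given in the sources used here. Of 55573 identifiers 55480 matched GENCODE M21. Groups and replicate numbers came from the titles. Counts were fitted with edgeR 4.0.16 in R 4.3.3 (filterByExpr, TMM, quasi-likelihood test, no covariates), with Benjamini-Hochberg adjustment over 12772 genes and a threshold of 0.05. The common biological coefficient of variation was 0.249. Same-numbered libraries deviated together (r of 0.399, 0.289, 0.329, 0.405 and 0.401 for replicates 1 to 5 over 12772 genes). The highest r of a GFP high library with a GFP low library of another number was 0.0651, 0.176, 0.218, 0.349 and 0.375 in that order. The numbers were taken to pair the samples, although the labels do not say so. SEs and adjusted p not marked with the block come from the fit without it, which leaves this pairing out. The fit with the replicate block is given where it changes a call. The script was tested on simulated data.

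The members and lists were chosen with earlier results of these data known. The naming rule took the 7 members, the 4 other family genes, the 3 tested genes of lowest p in each list, and the 5 genes most like the most abundant member. Shared 50-base words were counted between all annotated transcripts. Alternatives were DESeq2 1.42.0, other scalings, no filter, the block, leaving out libraries and each replicate set. The values of 1 listed gene are not reported here. The limit given for a count of 0 covers counting error only.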

Additional observations from a re-analysis of the deposited data

Results flagged for a closer look

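Of 50 groups of 5 libraries examined for 25 genes, 3 had 1 library far from the other 4, and chance alone sets apart about 1 group in 20. None of the 3 was a family gene. Nlrp3 stood at 77.4 CPM in GFP high replicate 3, with the nearest other GFP high library at 27.4 CPM, and at 17.1 CPM in GFP low replicate 3, with the nearest at 9.54 CPM. The cluster gene 9930111J21Rik2 stood at 45.1 CPM in GFP high replicate 4, with the nearest at 34.2 CPM.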

How the results depend on the processing

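The fit with the replicate block raised the calls over all genes from 3511 to 5333, and those of the interferon gamma list to 11, of the type I list to 14 and of the partner list to 7. Leaving out both libraries numbered 3 lowered them to 2293 over all genes, 3 members, 3 interferon gamma genes and 5 type I genes. Replicates 4 and 5 alone called 3 members. With 1 library left out, calls ran from 2829 to 3419 over all genes, from 3 to 6 members, from 6 to 8 GTPase genes, from 4 to 6 interferon gamma genes, from 5 to 10 type I genes and from 1 to 3 partner genes, and Gbp5 was called each time. Gbp9, at 0.013 in the full fit, changed sign without GFP high replicate 3 (-0.016), GFP low replicate 2 (-0.055) or GFP low replicate 3 (-0.042), from replicates 4 and 5 only (-0.22) and with both libraries numbered 3 left out (-0.076), and reached 0.11 without GFP low replicate 4. Of 449 values for 25 named genes under 18 alternatives, 398 kept their direction and side of the threshold, 44 lost the call, 2 gained it and these 5 changed sign. DESeq2, the other scalings and the fit without a filter left the direction and call of every family gene as they were. The cause of these changes was not tested. With 5 libraries a group and 197 counts in all, depth limits Gbp8 most.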
